A study of Homo sapiens with 32 samples.

Results

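The zinc finger genes of human chromosome 19 were examined for peak summits of 4 transcription factors, ZNF143, SP1, NRF1 and YY1, at their 5′ ends and along their bodies. Members were all protein-coding genes of GENCODE release 44 on chromosome 19 whose symbol is ZNF followed by a digit, which gave 249 of 19970 protein-coding genes on chromosomes 1 to 22 and X. The rule used the name and the chromosome of a gene and no measured value. For comparison, 1227 other genes of chromosome 19 and 266 ZNF genes of other chromosomes were described by the same measures.

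The cells were HEK293T, a human embryonic kidney line, in the single clone labelled HEK_CloneZD29, in which ZNF143 carries an inducible degron (dTAG) and an HA tag. All groups carried the tag, and cells were either untreated or given 50 nM dTAGV-1, a degrader of tagged proteins, for 30 minutes. Each treatment had 4 samples for each of the SP1, NRF1 and YY1 antibodies and 2 for the HA antibody and for a mock precipitation, 32 samples in 10 groups in all. One summit list per antibody was analysed, with no value per sample or treatment, so treated cells were not compared with untreated ones and there was no spread between replicates to test against.

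Each line of a list gave the position of a summit, the highest point within a peak, and a score. Judged by its values the score was a −log10 significance, of a p-value or of a q-value, which is not stated. The smallest score lay just above 2 in every list, the value of a cutoff of 0.01. The lists held 16165 (ZNF143), 126181 (SP1), 39180 (NRF1) and 106578 (YY1) summits on the chromosomes used, of which chromosome 19 held 1303, 4567, 2054 and 4093. The lists give no read depth, which is unknown here, and a missing summit says only that no peak passed the cutoff. Scores were therefore compared within a list only. Intervals are Wilson 95% intervals and cover counting over genes, not variation between samples.

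Most ZNF genes of chromosome 19 encode KRAB zinc finger proteins. In these proteins an array of C2H2 fingers reads DNA, often within transposable elements, and an amino-terminal KRAB domain recruits the corepressor TRIM28, which brings in the histone methyltransferase SETDB1 and heterochromatin proteins. The genes arose largely by tandem duplication, which left them in clusters, and their fingers are usually encoded in 1 long last exon. The 4 factors have many of their binding sites near transcription start sites. ZNF143 is itself a C2H2 protein encoded on another chromosome, SP1 binds GC boxes, NRF1 binds a palindrome rich in CpG, and YY1 binds around and just downstream of start sites.

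The members had the build the family name implies. Of 248 members with a coding transcript, 206 had a KRAB A box by its residue pattern and 247 had at least 1 C2H2 finger, with a median of 12 fingers and a maximum of 36 in ZNF208. The remaining gene with a coding transcript, the readthrough ZNF816-ZNF321P, had no finger. The last exon was 3354.5 bp long in the median, against 1426 bp over all protein-coding genes. The 5′ ends were on the plus strand in 134 members and on the minus strand in 115. Runs of at least 5 members with neighbouring 5′ ends at most 250 kb apart formed 13 clusters with 226 members, and 23 members lay outside them. Promoter windows of 20 members overlapped in 10 shared windows, and 28 members had the 5′ end of a non-member protein-coding gene within 500 bp, so that 1 summit can belong to more than 1 gene.

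ZNF143 summits lay at more members than at other genes of the chromosome. A summit within 500 bp of the gene's 5′ end was present at 139 of 249 members, 55.8% (49.6 to 61.9), where the share over all protein-coding genes was 31.7%. The other genes of chromosome 19 had one at 35.5%, and ZNF genes of other chromosomes at 56.0% (50.0 to 61.9), a share that did not differ from that of the members beyond the intervals. The 139 member genes rested on 132 distinct summits, since 14 members had their highest summit in common with another member.

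SP1, NRF1 and YY1 stood nearer to their backgrounds. An SP1 summit lay at 174 members, 69.9% (63.9 to 75.2), against 59.1% of all protein-coding genes. An NRF1 summit lay at 136 members, 54.6% (48.4 to 60.7), against 48.3%, so that the lower bound of the interval was close to the background. A YY1 summit lay at 171 members, 68.7% (62.7 to 74.1), against 57.8%. ZNF genes of other chromosomes had higher shares than the members for SP1 (78.9%), NRF1 (70.3%) and YY1 (78.9%), and for NRF1 the intervals did not overlap, with 64.6 as the lower bound of the other ZNF genes. In all 4 lists both sets of ZNF genes had a higher share than protein-coding genes as a whole.

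The height of the ZNF143 summits differed more than their presence. A summit among the highest-scoring 10% of the ZNF143 list lay at 72 members, 28.9% (23.6 to 34.8), while 6.47% of all protein-coding genes had one. The share was 9.70% at other genes of chromosome 19 and 21.1% (16.6 to 26.3) at ZNF genes of other chromosomes, whose interval overlapped that of the members. In the other lists a summit of the highest-scoring 10% lay at 71 members (28.5%) in the SP1 list, at 46 (18.5%) in that of NRF1 and at 98 (39.4%) in that of YY1. Over all protein-coding genes SP1 had 26.7%, NRF1 15.1% and YY1 28.5%, so the SP1 share of the members was close to its background. ZNF genes of other chromosomes had 37.2% for SP1, 22.6% for NRF1 and 51.9% for YY1, each above the share of the members.

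**Figure D1:**
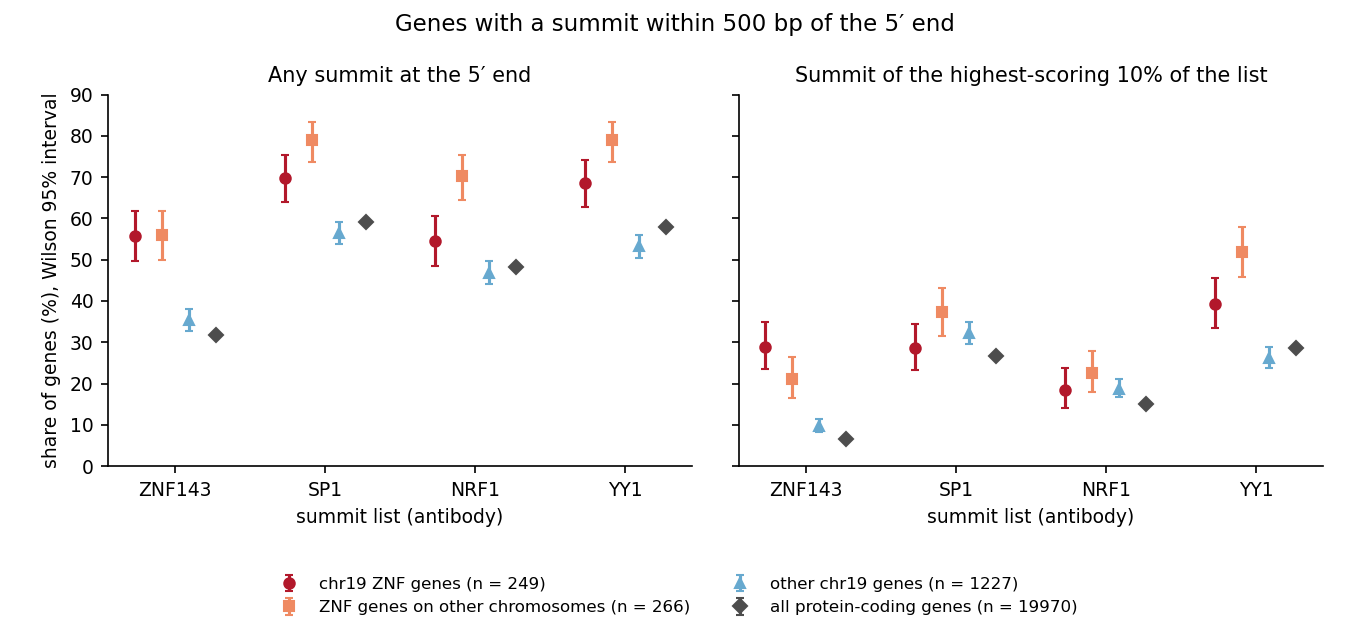
Share of genes with a summit within 500 bp of the 5′ end (y axis, %) for each summit list (x axis), for any summit (left) and for a summit among the highest-scoring 10% of its list (right). Points are the 4 gene groups and bars are Wilson 95% intervals; for ZNF143 the chromosome 19 ZNF genes lie at 55.8% (left) and 28.9% (right), above all protein-coding genes at 31.7% and 6.47%.

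ZNF143 scores of the members fell into a low and a high range. Among the 139 members with a summit, 49 scored under 100, 13 from 100 to 1000, 37 from 1000 to 5000 and 40 at 5000 or more. The median was 2320 (quartiles 16.8 and 5405, highest 13353), against 23.6 over all genes with a summit, 47.6 at other genes of chromosome 19 and 113 at ZNF genes of other chromosomes. Counting each distinct summit once gave a median of 2430. A gap picked from the members' scores lay between 93.1 and 232.9, with 49 members below it and 90 above it. Over all genes with a summit, 66.7% scored under 100, 9.66% from 100 to 1000, 11.8% from 1000 to 5000 and 11.9% at 5000 or more. Among members these shares were 35.3%, 9.35%, 26.6% and 28.8%, so a sparse middle range was not particular to them. SP1 scores of the members had a median of 177 (all genes 197), NRF1 scores 49.5 (48.0) and YY1 scores 184 (139).

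High ZNF143 scores were unevenly spread along the chromosome. Clusters 1 to 6, which hold 76 members from ZNF554 to ZNF91 on the short arm, had a ZNF143 summit at 25 members, a median score of 7.64 and 2 summits in the highest 10% of the list. Clusters 7 to 13, with 150 members from ZNF302 to ZNF446 on the long arm, had a ZNF143 summit at 103 members, a median score of 4261 and 68 summits in the highest 10%. SP1 summits lay at 48 of the 76 members and at 112 of the 150, and YY1 summits at 44 and 110. NRF1 summits lay at 25 and 101 members. Median GC content of the promoter windows was 58.2% and 57.3%, and the ratio of observed to expected CpG was 0.595 and 0.721.

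The high scores were concentrated in clusters 7, 8, 9, 12 and 13. Cluster 8 (chr19:36182276-37817300, ZNF146 to ZNF573) had a summit at 21 of 26 members, with scores from 381 to 10070, a median of 5143 and 16 in the highest 10%. Cluster 9 (chr19:43525497-44500524, ZNF575 to ZNF180) had one at 18 of 23 members, with a median of 5537 and 15 in the highest 10%. Cluster 13 (chr19:57191500-58481230, ZNF264 to ZNF446), near the end of the long arm, had one at 34 of 43 members, with a median of 4564 and 28 in the highest 10%. The small clusters 7 (ZNF302 to ZNF792) and 12 (ZNF582 to ZNF835) had one at all 5 and at 4 of 7 members, with medians of 4796 and 3458. At the 5′ ends of representative transcripts, ZNF143 summits lay at 26 of 26 members of cluster 8, 21 of 23 of cluster 9 and 36 of 43 of cluster 13.

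Cluster 10 on the same arm did not share this pattern. It holds 39 members from ZNF577 to ZNF331 (chr19:51804816-53580269), of which 38 have the KRAB pattern, and ZNF143 summits lay at 16 of them with a median score of 11.4, and at 18 by the transcripts' 5′ ends. Only ZNF350, at 5314, reached the highest 10% of the list there. SP1, NRF1 and YY1 summits lay at 25, 23 and 23 of the 39. Cluster 11 (ZNF628 to ZNF581), in which no member has the KRAB pattern, had ZNF143 summits at 5 of 7 members with a median of 42.0.

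The clusters nearest the centromere on the short arm had the lowest shares of ZNF143 and NRF1. Cluster 6 (chr19:21722771-23395471, ZNF100 to ZNF91) had no ZNF143 and no NRF1 summit at any of its 14 members, and SP1 and YY1 summits at 4 each. The counts were also 0 when the 5′ end of the representative transcript replaced that of the gene. One member of this cluster lay in a stretch where the NRF1 or YY1 list skips 10 or more consecutive peak numbers, and the part of this in the counts was not tested. Cluster 5 (ZNF737 to ZNF429) had ZNF143 and NRF1 summits at 2 of 11 members each, beside SP1 summits at 9 and YY1 summits at 8. Cluster 4 (ZNF101 to ZNF486) had ZNF143 summits at 2 and an NRF1 summit at 1 of 8 members. ZNF143 scores in clusters 3, 4 and 5 did not exceed 33.0.

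**Figure D2:**
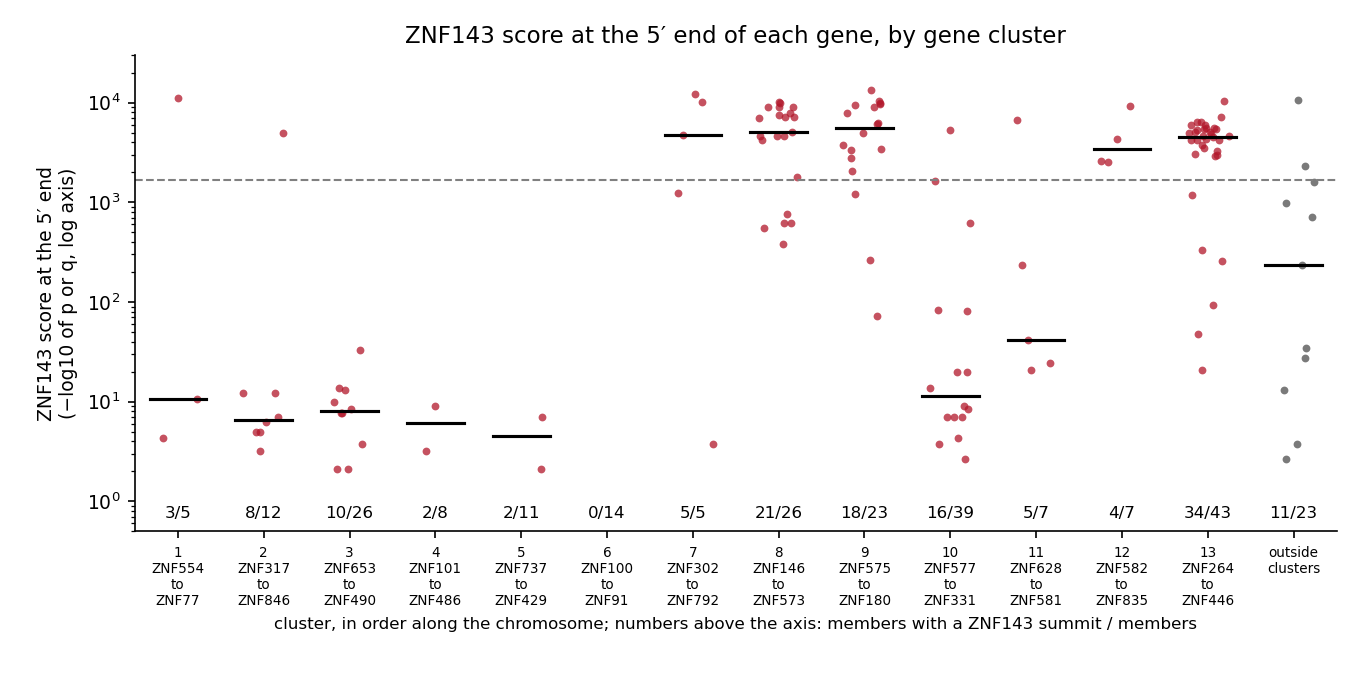
ZNF143 score of the highest summit within 500 bp of the 5′ end (y axis, −log10 significance, log axis) for each member with a summit (points), by cluster in order along chromosome 19 (x axis). Black bars are medians, the dashed line is the score from which a summit belongs to the highest 10% of the list, and the numbers give members with a summit over all members; clusters 7, 8, 9, 12 and 13 have medians from 3458 to 5537 and clusters 2 to 5 and 10 at most 11.4.

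**Figure D3:**
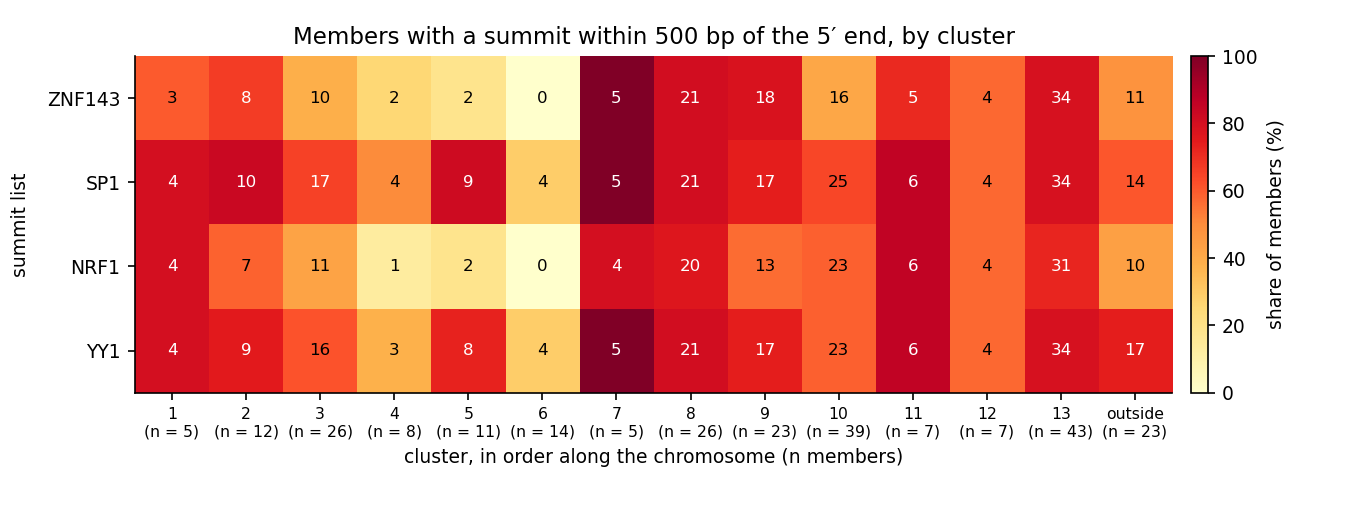
Share of members with a summit within 500 bp of the 5′ end (colour, %) by cluster (x axis, with the number of members) and summit list (y axis), with the number of members printed in each cell. ZNF143 and NRF1 are both at 0 in cluster 6, where SP1 and YY1 each have 4 of 14 members.

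Other genes inside the clusters gave a reference for the same stretches. Within cluster 13, 11 of 22 non-member protein-coding genes had a ZNF143 summit at the 5′ end, with a median score of 4923 and 9 in the highest 10%. Within cluster 8 it was 5 of 6 (median 516), within cluster 9 it was 6 of 14 (median 1081), and within cluster 10 it was 0 of 7. Some of these are zinc finger genes under other symbols or share a promoter window with a member, and no test separated them from the members.

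Letters shared by the high-scoring promoters are shown next, because they differ between clusters. Motif letters were searched on both strands within 50 bp of the highest ZNF143 summit and in the promoter window, 500 bp either side of the 5′ end. The letters CCCANNATG, chosen for ZNF143 from general knowledge of its site, were in 14.1% of member promoters and in 14.2% of all protein-coding promoters. They lay within 50 bp of the summit at 7 of the 72 members with a summit in the highest 10% (9.72%, all genes 15.7%). ACTACANNT, an overlapping element of the ZNF143 site chosen after the sequences at these summits had been read, was in 20.5% of member promoters and in 9.34% of all. It was in 30.2% of member promoters with a ZNF143 summit and in 8.18% of those without one. TTCCCAG, which overlaps it by 2 letters in the copies below, was chosen in the same way and was in 48.6% of member promoters against 29.8% of all.

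ACTACANNT was mostly found in clusters 8, 9 and 12. It was in 15 of 26 promoters of cluster 8, in 15 of 23 of cluster 9 and in 5 of 7 of cluster 12, but in 4 of 43 of cluster 13, 4 of 39 of cluster 10 and 0 of 14 of cluster 6. TTCCCAG was more widely spread, with 14 of 26 promoters in cluster 8, 20 of 23 in cluster 9, 18 of 43 in cluster 13, 21 of 39 in cluster 10 and 8 of 14 in cluster 6. The lines below give 30 bases of hg38 around the copy nearest the summit for 8 of the 10 highest-scoring members that have it, in the orientation of the letters. Capitals mark ACTACANNT and TTCCCAG.
ZNF554 (chr19:2819817-2819846, minus strand): gcgaACTACAAGTcccagcaggccccgcag
ZNF235 (chr19:44305096-44305125, plus strand): ctggACTACAGTTCCCAGaatgctccaagg
ZNF230 (chr19:44002827-44002856, minus strand): atggACTACAGTTCCCAGaattcactcgtc
ZNF224 (chr19:44094250-44094279, minus strand): ctggACTACACTTCCCAGaattccctggga
ZNF227 (chr19:44207438-44207467, minus strand): cctgACTACACTTCCCAGaatgccccaggg
ZNF45 (chr19:43935300-43935329, plus strand): tggaACTACATTTCCCAGcatccccgggag
ZNF570 (chr19:37467446-37467475, plus strand): ccgaACTACATTTCCCAGaggccttcgcgg
ZNF567 (chr19:36687476-36687505, minus strand): ttggACTACATTTcccacaggcgcccgggc

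Of these 8, ZNF45, ZNF224, ZNF227, ZNF230 and ZNF235 belong to cluster 9, and all 5 carry the letters on the strand opposite to the gene. ZNF143 scored 10333 at ZNF235, 9730 at ZNF230, 9439 at ZNF224, 9059 at ZNF227 and 7931 at ZNF45, with summits at −37, −78, −61, −94 and −69 bp from the 5′ ends (negative is upstream). In cluster 8, ZNF570 scored 7883 at −115 bp and ZNF567 scored 7089 at −112 bp. These genes are tandem neighbours with similar promoters, so the copies are not independent of each other.

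Cluster 13 held another version of the element. The letters ATTACCCAG, also chosen after the sequences were read, were in 11 of its 43 promoters and in 12 of all 249 member promoters (4.82%), where all protein-coding promoters had them at 0.766% and ZNF genes of other chromosomes at 0 of 266. In cluster 13 they were within 50 bp of the ZNF143 summit at 9 members, all 9 of them with a summit in the highest 10% of the list. In all 9 they were on the strand of the gene, and their first letter lay in the median at −29 bp from the summit. The lines below give 30 bases of hg38 in gene orientation for 7 of the 9, with ATTACCCAG in capitals. In 7 of the 9 the letters follow actac, the start of the element above, and the exceptions are ZNF256 and ZNF460.
ZNF749 (chr19:57435224-57435253, plus strand): gagaactacATTACCCAGaagacactgcgg
ZNF417 (chr19:57916684-57916713, minus strand): gggaactacATTACCCAGaaagctctgcgt
ZNF552 (chr19:57815006-57815035, minus strand): ggaaactacATTACCCAGaaagctctgcgt
ZNF530 (chr19:57599786-57599815, plus strand): gagaactacATTACCCAGaggcccgtgagc
ZNF772 (chr19:57477628-57477657, minus strand): gggaactacATTACCCAGgaaacttggcgg
ZNF586 (chr19:57769537-57769566, plus strand): gggaactacATTACCCAGaatccgccctgc
ZNF256 (chr19:57947780-57947809, minus strand): tgtgggaacATTACCCAGaatggcctgcgt

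ZNF143 scored 10524 at ZNF749, 5509 at ZNF417, 5432 at ZNF552, 5378 at ZNF530, 4490 at ZNF772, 4253 at ZNF586 and 2921 at ZNF256. The letters GCCAATGA, which hold a CCAAT box and were chosen after the sequences were read, lay within 50 bp of the ZNF143 summit at 12 members of cluster 13, all on the strand of the gene, and at 1 other member. Their first letter lay in the median 1 bp from the summit. They were in 7.63% of member promoters and in 3.44% of all protein-coding promoters.

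At least 1 of ACTACANNT, TTCCCAG and ATTACCCAG lay within 50 bp of the summit at 48 of the 72 members with a summit in the highest 10%, 66.7%. Over all protein-coding genes with such a summit the share was 54.9%, and over ZNF genes of other chromosomes 57.1%. At the 49 members that scored under 100 it was 1 member (2.04%), against 5.01% over all genes in that range of scores. The letters were more frequent at high than at low scores both among members and over all genes. They were chosen after sequences at these member summits had been read, so the shares among members cannot serve as a test of them.

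By the 5′ end of the gene record, ZNF226 had the highest ZNF143 score of the members. ZNF226, in cluster 9, scored 13353 with the summit at −96 bp from the 5′ end, beside 414 for SP1, 49.5 for NRF1 and 1432 for YY1. ZNF181, in cluster 7, scored 12126 at −59 bp. ZNF554, in cluster 1, scored 11276 at −53 bp, and the other members of that cluster with a summit scored 10.6 and 4.35. ZNF473, whose protein works with the U7 particle in histone pre-mRNA processing, scored 10694 at 254 bp downstream of the 5′ end, and ZNF749 scored 10524 at −100 bp. All 5 had summits of all 4 lists. By the 5′ end of the representative transcript, 3 members scored higher than ZNF226, namely ZNF444 (22012), ZNF225 (20041) and ZNF223 (18123), which are named here after their values were seen.

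Members with a known role, named for that reason, spanned the whole range. ZNF274, a KRAB protein that binds the 3′ exons of other zinc finger genes, had a ZNF143 summit of 4823 and a YY1 summit of 4235, at 324 and 312 bp downstream of its 5′ end. ZNF224, a repressor in cluster 9, scored 9439 for ZNF143, and ZNF568, a regulator of placental development in cluster 8, scored 7267. ZNF146, which has fingers but no KRAB domain, scored 9088 for ZNF143 and had no NRF1 summit within 500 bp of the gene's 5′ end, but one of 3474 at the 5′ end of its representative transcript. ZNF175 scored 715 for ZNF143, 6798 for NRF1 and 10572 for YY1. ZNF91, which represses SVA elements, had SP1 (199) and YY1 (135) summits and neither ZNF143 nor NRF1. ZNF93, which represses L1 elements, and ZNF331, an imprinted gene, had no summit of any list at either 5′ end used.

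The highest promoter scores of the other lists were mostly at other members. For SP1 they were ZNF628 (2180), ZNF77 (1690), ZNF524 (1479), ZNF564 (1373) and ZNF555 (1337), 4 of which had a ZNF143 score under 1000. ZNF628, with 6732 for ZNF143, was the exception. For NRF1 they were ZNF576 (17216), ZNF627 (12036), ZNF554 (11771), ZNF473 (11113) and ZNF526 (10335). For YY1 they were ZNF350 (13876), a partner of BRCA1, ZNF524 (13067), ZNF175 (10572), ZNF649 (9165) and ZNF585A (8397). ZNF554 and ZNF473 were among the highest 5 in both the ZNF143 and the NRF1 list.

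Sequences at these NRF1 and YY1 summits are given as examples of the letters GCNTGCGC and AANATGGC. GCNTGCGC, part of the NRF1 palindrome, was in 26.5% of member promoters and 25.9% of all, and within 50 bp of the NRF1 summit at 29 of the 46 members with a summit in the highest 10% (63.0%, all genes 73.5%). AANATGGC was in 27.3% of member promoters and 16.7% of all. Among members it was in 25.7% of promoters with a YY1 summit and 30.8% of those without one, where all genes had 19.3% and 13.2%. It lay within 50 bp of the YY1 summit at 21 of 98 such members (21.4%, all genes 18.4%). Both were chosen after the sequences were read. Capitals mark these letters in 30 bases of hg38.
ZNF576, NRF1 (chr19:43596268-43596297, plus strand): tgagtcaacgcGCCTGCGCgccacgagagc
ZNF627, NRF1 (chr19:11559376-11559405, plus strand): agacgcagtgcGCCTGCGCaagagccggtg
ZNF554, NRF1 (chr19:2819847-2819876, minus strand): ctcggcactgcGCCTGCGCaccccgaacct
ZNF350, YY1 (chr19:51986927-51986956, plus strand): tcctactctgtAAAATGGCcgcgcccatag
ZNF649, YY1 (chr19:51905088-51905117, minus strand): gcagatctaccAAGATGGCcgcgcccagag
ZNF585A, YY1 (chr19:37172839-37172868, plus strand): gtccggcagagAACATGGCcgcgcccttat

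At ZNF554 the 30 bases shown for ZNF143 and those shown for NRF1 are neighbouring stretches of the same promoter, and the summits lay at −53 and −18 bp from the 5′ end. The letters fixed for the other factors from general knowledge were also counted. GGGCGG, a GC box, was in 82.3% of member promoters (all 72.0%), GCATGCG for NRF1 in 9.64% (8.25%) and AANATGGCG for YY1 in 18.5% (7.54%). AANATGGCG overlaps AANATGGC by construction, and the YY1 sequences printed above hold only the shorter letters. A match here describes the sequence and does not show a bound site.

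The 4 factors were mostly present or absent together. All 4 lists had a summit at 121 members (48.6%), against 28.1% of all protein-coding genes, and 67 members (26.9%) had none, against 37.3%. ZNF genes of other chromosomes had all 4 at 51.1% and none at 17.7%, so a high share with all 4 was not particular to the members. Of the 139 members with a ZNF143 summit, 137 had SP1, 121 NRF1 and 136 YY1, while of the 110 without ZNF143, 37 had SP1, 15 NRF1 and 35 YY1. Over all genes with ZNF143, 97.8% had SP1, 90.6% NRF1 and 97.4% YY1, close to the 98.6%, 87.1% and 97.8% of the members. Over all genes without ZNF143, 41.2% had SP1, 28.7% NRF1 and 39.5% YY1, where the members without it had 33.6%, 13.6% and 31.8%. SP1 with YY1 alone was found at 18 members (7.23%, all genes 7.40%). ZNF143 with SP1 and YY1 was found at 14 (5.62%, all genes 2.24%), and SP1, NRF1 and YY1 without ZNF143 at 12 (4.82%, all genes 17.4%). ZNF229, in cluster 9, was the only member with a ZNF143 summit and no other list, with a score of 266.9 at 46 bp downstream of the 5′ end.

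Where ZNF143 was high, NRF1 was not higher. Members with a ZNF143 score of 1000 or more had a median NRF1 score of 50.9 (68 members), and those with a lower ZNF143 score 267 (53 members). Over all genes the same medians were 74.9 and 58.9. For YY1 the medians were 307 and 130 among members and 364 and 253 over all genes. Spearman's rho between ZNF143 and YY1 scores was 0.38 over 136 members, between ZNF143 and SP1 0.06 over 137, and between ZNF143 and NRF1 −0.01 over 121. These are correlations across genes, which are not independent replicates, and the lists come from the same clone.

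Summits at the members were close to the 5′ end and to each other. The highest ZNF143 summit lay in the median at −34 bp from the 5′ end, and 76 of 139 (54.7%) lay within 150 bp upstream, against 36.9% over all genes. For SP1 this was 66.7% (all genes 46.8%), for NRF1 58.8% (38.8%) and for YY1 39.2% (19.2%). Median positions were −36.5 bp for SP1, −21.5 bp for NRF1 and 22 bp downstream for YY1. The highest SP1 summit lay within 50 bp of the highest ZNF143 summit at 86 of 137 members (62.8%, all genes 47.6%), the NRF1 summit at 57 of 121 (47.1%, 27.8%) and the YY1 summit at 83 of 136 (61.0%, 40.1%). ZNF genes of other chromosomes had 60.7% for SP1, close to the members, 30.7% for NRF1 and 46.6% for YY1.

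**Figure D4:**
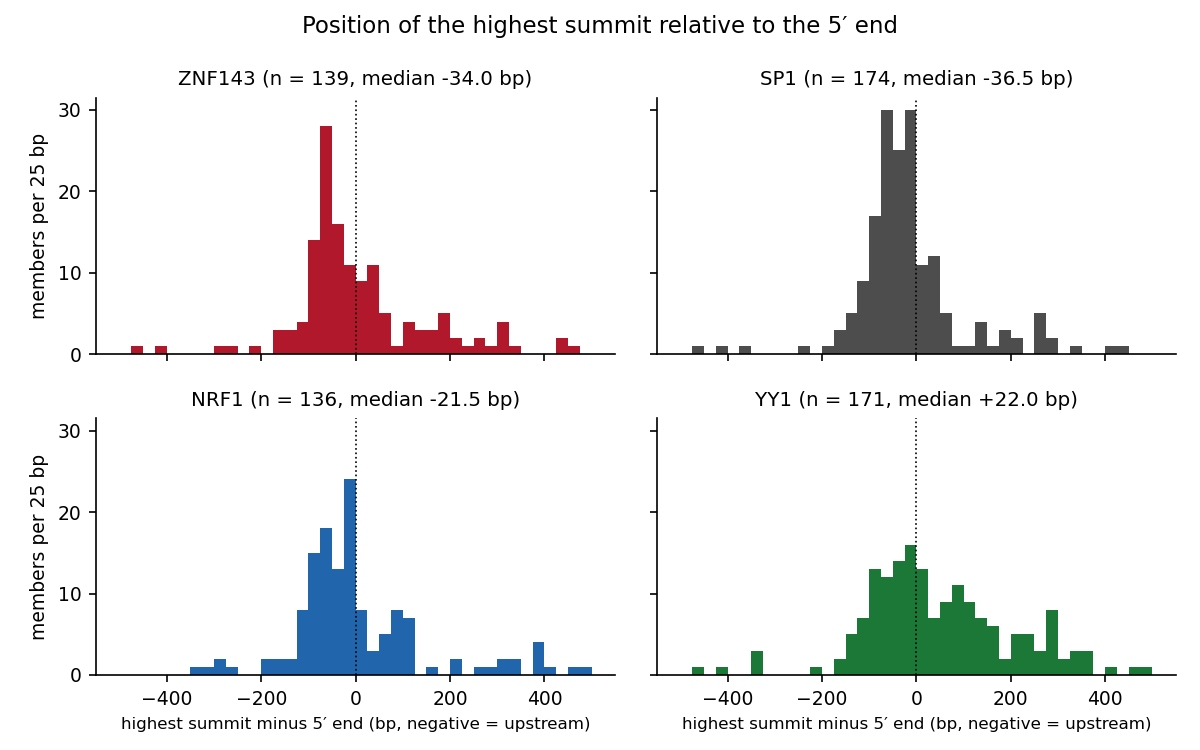
Number of members per 25 bp (y axis) by position of the highest summit relative to the gene's 5′ end (x axis, bp, negative upstream), in 1 panel per summit list. ZNF143, SP1 and NRF1 summits peak within 100 bp upstream of the 5′ end, with medians of −34, −36.5 and −21.5 bp, and YY1 summits spread further downstream, with a median of 22 bp downstream.

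Members with no list differed in base composition from those with one. The observed to expected CpG ratio was 0.559 in the median of the 67 members with no summit and 0.713 in the 182 with any, and GC content was 55.7% and 58.2%. Protein-coding genes with no summit had a ratio of 0.274, lower than that of members with none. The 5′ end of the gene record was more than 500 bp from that of the representative transcript in 53 members. Of the 67 members, 22 had a summit at the transcript's 5′ end and 45 had none at either.

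Presence of ZNF143 was also set against the KRAB pattern. A ZNF143 summit lay at 114 of 206 members with the pattern (55.3%) and at 25 of 42 without it (59.5%). Median scores were 2567 with it and 329 without it. Members without the pattern had NRF1 at 64.3% and those with it at 52.9%.

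Genes that work with these proteins were described for reference from a list of 10. TRIM28, the corepressor itself, lies on chromosome 19 beyond the last cluster and had ZNF143 at 4.35 and SP1 at 341, with no NRF1 or YY1 summit. SETDB1, the methyltransferase, had all 4 lists with ZNF143 at 33.1. CBX1, a heterochromatin protein, had ZNF143 at 8788. In all, 8 of the 10 had ZNF143 (all protein-coding genes 31.7%), all 10 SP1 (59.1%), 8 NRF1 (48.3%) and 8 YY1 (57.8%). The median ZNF143 score of the 8 was 22.3, close to the 23.6 over all genes with a summit, and only CBX1 reached the highest 10% of the list. Of 18 chromosome 19 zinc finger genes under other symbols, 6 had ZNF143, 33.3% (16.3 to 56.3), against 31.7% of all protein-coding genes. ZSCAN22 was highest at 18339, where the highest member by the gene's 5′ end scored 13353. SP1 lay at 27.8% of the 18 (all genes 59.1%), NRF1 at 27.8% (48.3%) and YY1 at 38.9% (57.8%). No list had a summit at 61.1% of them (all genes 37.3%).

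Beyond the 5′ ends the members held few summits. In the gene body without the 5′ window and the last exon, density per kb was 0.00872 (ZNF143), 0.0185 (SP1), 0.0116 (NRF1) and 0.0221 (YY1), against 0.612, 0.749, 0.645 and 0.834 at the 5′ end. Over all protein-coding genes body densities were 0.00504, 0.0542, 0.0154 and 0.0446. Of 59 ZNF143 summits in member bodies, 49 lay within 500 bp of another annotated 5′ end, with a median score of 1867, and the rest had a median of 4.97. For SP1 it was 73 of 130, for NRF1 54 of 75 and for YY1 80 of 179.

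The last exon, which encodes the fingers, held almost no ZNF143, SP1 or NRF1. A ZNF143 summit lay there in 2 members (0.803%), ZNF576 and ZNF180, where all protein-coding genes had 1.09%. SP1 summits lay there in 4 members (1.61%, all genes 6.81%), ZNF180, ZNF473, ZNF557 and ZNF580. NRF1 summits lay there in 0 of 249 members, with 2.61% over all genes. These shares were at or below the background although the members' last exons are longer.

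YY1 was listed in more last exons than the other factors, at low scores. It lay there in 28 members, 11.2% (7.90 to 15.8), with 6.51% over all protein-coding genes and 14.7% (10.9 to 19.4) in ZNF genes of other chromosomes. Per kb of last exon the density was 0.0444 in members, 0.0495 over all genes and 0.0778 in ZNF genes of other chromosomes. The members' excess over all genes in the share of genes was thus not found per length. The 41 summits had a median score of 6.07 and 30 lay in coding sequence. GAGAAACC, letters of the linker between fingers, lay within 50 bp of 13 of the 41, and all 13 were in coding sequence. Of all positions in member last exons, 14.1% were within that reach of a copy. That share counts coding and untranslated positions together, so it is not a background for summits in coding sequence, and no enrichment can be read from it.

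ZNF180 had the highest of these summits. Its last exon held YY1 at 48.2, SP1 at 23.8 and ZNF143 at 4.97 in the coding part, and a second SP1 summit there, at 22.6, lay 23 bp from the YY1 summit. For SP1, the 31 bases at the summit of ZNF180 occurred more than once in the genome. ZNF700 (26.1) and ZNF564 (24.3) followed for YY1, and the 31 bases at the ZNF700 summit also occurred more than once. At promoters this was so at 2 of the 139 members with ZNF143 and 7 of the 174 with SP1, and at 4 of the 136 with NRF1 and 6 of the 171 with YY1. Reads from near-identical copies can be placed in any of them or discarded, and how they were treated is not given in the sources used here. Near the 3′ end, within 500 bp either side, ZNF143, SP1 and NRF1 summits lay at 2 members each (0.803%) and YY1 summits at 8 (3.21%). Over all protein-coding genes these shares were 1.59% (ZNF143), 6.64% (SP1), 2.86% (NRF1) and 6.13% (YY1).

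**Figure D5:**
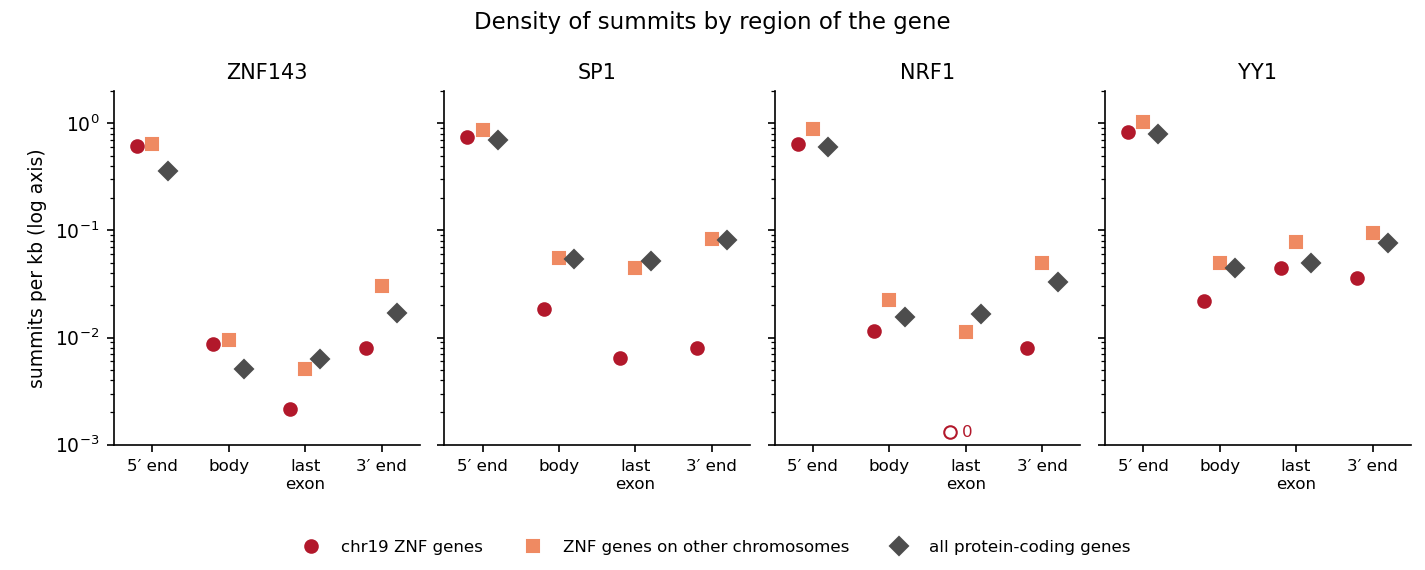
Summits per kb (y axis, log axis) in 4 regions of the gene (x axis) for chromosome 19 ZNF genes, ZNF genes of other chromosomes and all protein-coding genes, in 1 panel per summit list; the open circle marks a density of 0. Members have 0.612 ZNF143 summits per kb at the 5′ end and 0.00216 in the last exon, and no NRF1 summit in the last exon.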

How the data were processed

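ChIP-seq of 32 samples in 10 groups was deposited with 4 summit lists, 1 per antibody. Their score is a −log10 significance (p-value or q-value) written by the authors' peak caller, as judged from the deposited values. Per the submitters' processing notes, cutadapt, Bowtie2, SAMtools 1.16.1, MACS3, bedtools and hg38 were used, with no roles, order or settings given. The labels tie the SP1 and ZNF143 lists to untreated and treated samples alike. The NRF1 and YY1 lists were matched by the antibody in their names. Contig names and lengths fit hg38. No mock list was analysed here.

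Summits on chromosomes 1 to 22 and X were assigned to genes of GENCODE 44 within 500 bp of the 5′ end, in the last exon of the representative transcript (MANE Select, else Ensembl canonical) and over the body. The highest-scoring summit gave a gene's score and position. Shares are set beside those of all protein-coding genes, with Wilson 95% intervals. No test was run, since no list has a value per sample. The assignment was checked on simulated data, where 200 of 200 planted promoter summits were recovered. Fingers and the KRAB pattern were counted in coding sequences translated from hg38. Sequences printed are hg38. Named genes were the 5 highest promoter scores and 3 highest last exon scores per list, members with ZNF143 alone, and 8 genes of known role. Other genes are named as examples of letters or clusters and were chosen after their values were seen. Members, lists and clusters were chosen with earlier results of these data known. Python 3.11.15, numpy 2.4.6, scipy 1.17.1 and pysam 0.24.0 were used.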

Additional observations from a re-analysis of the deposited data

How the results depend on the processing

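Shares of members with a promoter summit were higher when the 5′ end of the representative transcript replaced that of the gene. ZNF143 came to 63.5% (all genes 34.9%), SP1 to 78.3% (64.5%), NRF1 to 62.7% (52.8%) and YY1 to 77.5% (63.1%). A window of 250 bp gave 61.0% for YY1 (all genes 48.5%). With the higher-scoring 50% of each list, ZNF143 came to 43.4% (all genes 19.4%), and last exon shares to 0.402% for SP1 and 2.41% for YY1. With all lists cut to the 16165 highest summits, promoter shares were 37.3% for SP1 (all genes 32.7%), 45.8% for NRF1 (40.2%) and 47.4% for YY1 (36.0%). Last exon shares were then 0% for SP1 and 0% for YY1, so the YY1 summits in the members' last exons rest on the lower part of a long list. Last exon shares over all genes were not set beside these alternatives, so the drop cannot be read as particular to the members. The share with a ZNF143 summit in the highest 10% ran from 27.7% to 34.5% over 5 alternatives chosen after seeing the data. In all, 36 alternative values stayed within the Wilson interval of the value reported.

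No paired analysis was possible because the lists give no value per sample. One clone was used, read depth is unknown, scores are not comparable between lists, and 5 members (ZNF91, ZNF675, ZNF681, ZNF726 and ZNF254) lie in stretches where numbers of NRF1 or YY1 peaks are skipped. ZNF143 signal before and after degradation was not compared.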
